A study of Homo sapiens with 16 samples.

Results

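The 7 genes described here encode intermediate filament proteins: the type II keratins KRT80, KRT7 and KRT8, the type I keratins KRT18 and KRT19, the type III protein vimentin (VIM) and the type IV protein nestin (NES). They were listed by name and found among the 63677 Ensembl gene IDs of each count table by their symbols, and all 7 passed the filter on low counts. The list was selected on read counts of these same libraries, with the differences between the lines and over time already known, so every p below describes these libraries and is not independent support for the choice.

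The RNA came from a pair of human melanoma lines. UACC62R is a variant of the parental line UACC62P that resists vemurafenib, an inhibitor of mutant BRAF, after 2 months of selection at 2 uM, and it was kept in the drug. The groups were UACC62R after 0, 2, 6 and 24 h in 10 uM CCG-222740, which is known to block transcription by MRTFA and MRTFB, the coactivators of SRF, and UACC62P after the same times, with 2 libraries in each of the 8 groups. The labels state continuous vemurafenib for the 0 h cells, and do not say whether it stayed on during the treatment. No vehicle library was used here, so time in culture and the compound cannot be told apart. The 0 h libraries were also registered apart from the treated ones, with titles in another style. Each comparison with 0 h carries this split, whose part was not tested. The labels do not say that the 2 libraries of a group came from separate cultures, so the spread between them may be technical.

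Intermediate filaments are the cytoskeletal fibres whose subunits differ most between cell types. Keratins form filaments only as pairs of a type I and a type II chain, and the pair of KRT8 and KRT18 is the first to appear in simple epithelia, where KRT7 and KRT19 are also found. Vimentin, the filament protein of mesenchymal cells, is abundant in melanoma cells, and nestin, known from neural progenitors, joins vimentin filaments.

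The libraries held 25.9 to 33.3 M reads in genes (median 29.9 M). The library labelled UACC62P 2 h replicate 1 stood apart: all 7 genes lay within the range of the 8 UACC62R libraries there, and none within that of the other 7 UACC62P libraries. It held 26.5 CPM (counts per M reads in genes, with library sizes scaled by TMM) of KRT80, for example, against 0.159 to 0.618 CPM in the other UACC62P libraries. It was left out of the means and tests below, which leaves 1 UACC62P library at 2 h. Values with it are given for some of the results. Melanocyte markers (8 genes) summed to 73.8 to 85.7 CPM in UACC62R and 1520 to 1830 CPM in UACC62P, with 76 CPM in the library that stood apart. Epithelial markers (16 genes) summed to 2.31 to 4.46 CPM in UACC62R and 11.2 to 17.8 CPM in UACC62P, and 4 of them passed the filter on low counts. At 0 h, ESRP1 and GRHL1 were called lower in UACC62R, and CLDN4 and CDH3 higher. CDH3 had at most 0.456 CPM in UACC62R and 0.075 CPM in UACC62P. It passed the filter through UACC62R alone, so its call is not support of its own. ESRP1 was the largest part of the UACC62P sum, at 0 to 0.519 CPM in UACC62R and 7.32 to 12 CPM in UACC62P, whereas CLDN4 had 0.882 to 2.18 CPM in UACC62R and 0.183 to 0.887 CPM in UACC62P. CDH1, the epithelial cadherin, had 0 reads in the 15 libraries, and EPCAM at most 0.116 CPM in UACC62R and 0.0714 CPM in UACC62P. Endothelial and blood cell markers (5 genes each) summed to at most 2.11 and 0.874 CPM in UACC62R and at most 1.38 and 1.10 CPM in UACC62P.

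KRT8 and KRT18 have many processed pseudogenes, and the stretches below show how alike a gene and its copy are over about the length of a read. Of all 50-base words in the KRT8 transcript used, 34.18% also occurred in transcripts of genes at other places, as did 31.79% of those of KRT18. The share was 1.79% for KRT19, 1.06% for KRT7, 0.42% for KRT80 and 0 for VIM and NES. KRT8P12 on chromosome 3 was 90.7% identical to KRT8 over 1390 aligned bases, and KRT18P31 on chromosome 5 was 90.6% identical to KRT18 over 1290. Another annotated KRT8P12 transcript, of 998 bases, aligned with KRT8 over 385 bases only, so reads on KRT8P12 need not resemble KRT8. Capitals mark the bases at which a gene and its pseudogene differ in 60 aligned bases of GENCODE v29 transcripts (GRCh38): KRT8 at chr12:52904912-52904971 (minus strand) beside KRT8P12 at chr3:160567862-160567921 (plus strand), and KRT18 at chr12:52949186-52949245 (plus strand) beside KRT18P31 at chr5:36885218-36885277 (plus strand).
KRT8: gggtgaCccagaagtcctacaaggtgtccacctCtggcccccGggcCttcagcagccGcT
KRT8P12: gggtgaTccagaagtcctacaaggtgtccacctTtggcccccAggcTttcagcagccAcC
KRT18: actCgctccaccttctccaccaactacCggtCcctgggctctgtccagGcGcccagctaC
KRT18P31: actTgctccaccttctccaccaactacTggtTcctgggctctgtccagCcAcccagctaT
Each pair differed at 6 bases.

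At 0 h, before CCG-222740, the lines differed in every one of the 7 genes. UACC62R was kept in vemurafenib, so line and vemurafenib cannot be told apart in this comparison. All 5 keratins were higher in UACC62R than in UACC62P, and VIM and NES were lower. The gap was smallest for VIM. All 7 were called by edgeR's quasi-likelihood test at a Benjamini-Hochberg adjusted p under 0.05, in a comparison in which 53.9% of all 20280 genes tested were called (27.8% higher, 26.1% lower), so a call alone says little here and the sizes matter more. With 16 libraries all 7 stayed called, among 40.5% of 19352 genes, but with larger errors and adjusted p. KRT80 then stood at 6.88 ± 1.48 on the log2 scale (SE; adjusted p = 0.00986, edgeR). VIM stood at −0.43 ± 0.15 and had the highest adjusted p of the 7 (0.0388, edgeR). KRT7 and KRT19 passed the filter on low counts through UACC62R alone, so their calls are not support of their own. In bulk RNA, fewer cells with a transcript and less of it per cell cannot be told apart.

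KRT80, a type II keratin of differentiating epithelia, had 32.9 and 34.7 CPM in the UACC62R libraries at 0 h, against 0.275 and 0.292 CPM in those of UACC62P. Its log2 fold change was 6.87 ± 0.19 (SE; adjusted p = 9.69e-13, edgeR). The lines did not overlap at any time, since the lowest UACC62R library, at 24 h, had 4.79 CPM and the highest UACC62P library, at 6 h, 0.618 CPM.

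KRT7, a type II keratin of ducts and simple epithelia, had 3.75 and 3.15 CPM in UACC62R at 0 h, or 213 reads in both libraries, against 1 read in both UACC62P libraries. The ratio of levels was 194 (95% exact interval 34.5 to 7700, counting error only). In UACC62P no library at any time held over 0.0683 CPM of it. KRT19, a small type I keratin of simple epithelia, was near the limit of counting even in UACC62R, with 0.635 and 0.312 CPM (29 reads) at 0 h, against 2 reads in UACC62P. Its ratio was 13.2 (interval 3.34 to 114).

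KRT18 was the most abundant keratin of the 5 in both lines, also per kb of exon. It had 76.3 and 67.2 CPM in UACC62R at 0 h, against 24.3 and 24.2 CPM in UACC62P (log2 fold change 1.56 ± 0.11, adjusted p = 1.69e-08, edgeR). KRT8, its usual partner, had 7.56 and 7.24 CPM in UACC62R, against 1.79 and 2.56 CPM in UACC62P (log2 fold change 1.77 ± 0.22, adjusted p = 9.32e-06, edgeR). The groups did not overlap for either gene.

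The KRT8 value depends on where its reads were placed. Reads that fit KRT8 and a pseudogene equally were not counted for either. In UACC62R, 69.0 to 78.66% of the summed reads of KRT8 and its 51 pseudogenes lay on the pseudogenes, against 78.24 to 89.53% in UACC62P. Most of these were on KRT8P12, with 668 and 712 reads in UACC62R at 0 h, against 373 and 349 in UACC62P. With the pseudogene reads added to the gene, an alternative chosen once the data had been seen, the KRT8 log2 fold change was 0.99 ± 0.09 (adjusted p = 2.05e-07, edgeR). For KRT18, whose 67 pseudogenes took 8.53 to 11.39% of the joint reads in UACC62R and 8.06 to 12.22% in UACC62P, it was 1.55 ± 0.10. How many of the reads on KRT8P12 come from KRT8 was not tested. KRT8 and KRT18 also share 525 exon bases on opposite strands, and whether the counting used strand is not stated in these sources.

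**Figure D1:**
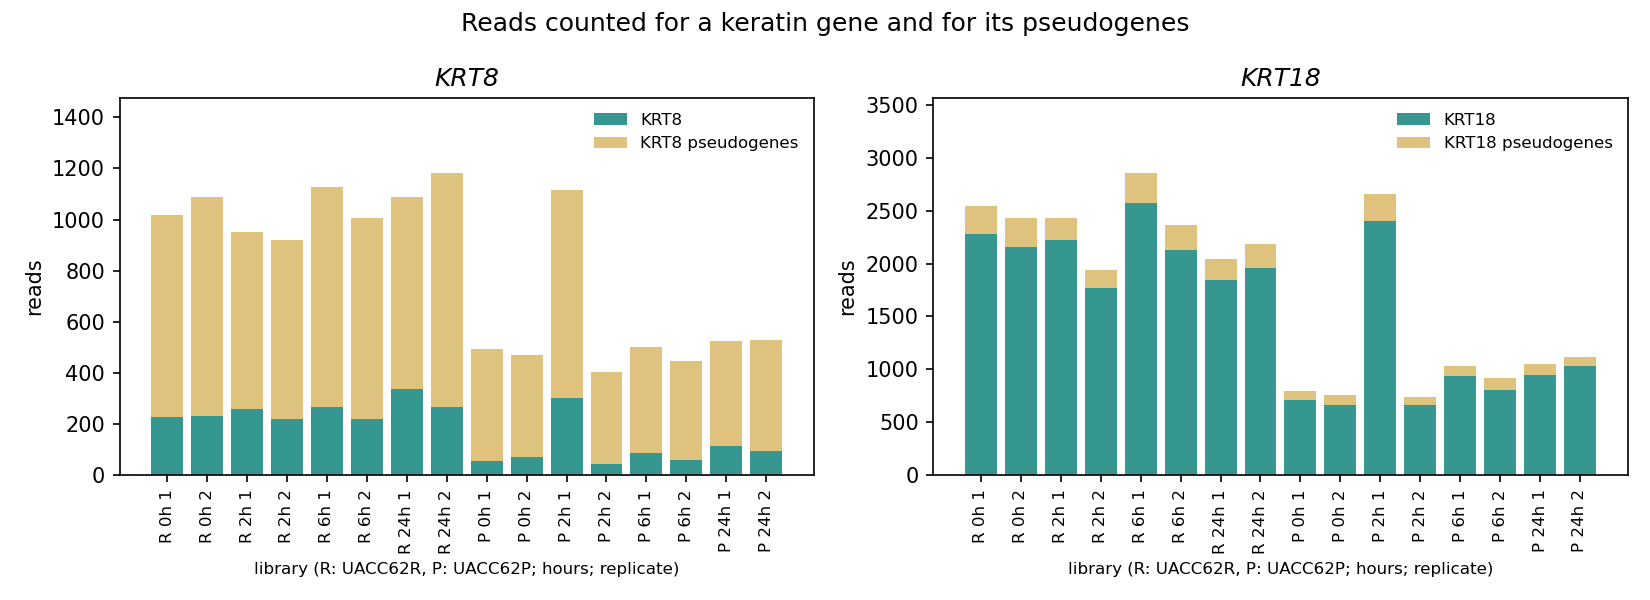
Reads (vertical axis) counted for KRT8 and KRT18 and for all their pseudogenes, stacked, in each of the 16 libraries; R is UACC62R and P is UACC62P, followed by hours and replicate. Most reads of the KRT8 family lie on pseudogenes, whereas KRT18 pseudogenes take at most 12.22%; the bar P 2h 1 is the library that stood apart.

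VIM dominated the 7 genes in both lines. It had 2200 and 2050 CPM in UACC62R at 0 h, against 2780 and 2940 CPM in UACC62P (log2 fold change −0.43 ± 0.07, adjusted p = 7.66e-05, edgeR). Per kb of exon, VIM made up 91.1 to 93.7% of the summed level of the 7 genes in every UACC62R library, and the share in UACC62P was in the same range. NES had 43.4 and 35.9 CPM in UACC62R, against 245 and 227 CPM in UACC62P. Its log2 fold change was −2.58 ± 0.09 (adjusted p = 2.1e-11, edgeR). As a share of VIM, per kb, NES stood at 1.33 to 1.83% in UACC62R and at 6.4 to 8.2% in UACC62P, with no overlap. The length is that of all annotated exons of a gene joined. It was 5158 bases for VIM, whose transcript used above has 2135, and 5558 for NES, as in its transcript. The size of these shares depends on that choice, and the contrast between the lines does not.

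Per kb of exon in CPM, the order at 0 h was the same for VIM and differed below it. In UACC62R, VIM (411) was followed by KRT18 (22.3), KRT80 (7.76), NES (7.14), KRT8 (1.08), KRT7 (0.843) and KRT19 (0.203). KRT80 and NES lay side by side, and their libraries overlapped. This overlap rests on the joined exon length of KRT80, 4350 bases against 3859 in its transcript. In UACC62P, VIM (554) was followed by NES (42.5), KRT18 (7.53), KRT8 (0.316), KRT80 (0.0652), KRT19 (0.0152) and KRT7 (0.0042), and the last pair rested on 3 reads in all. The KRT8 levels here leave out the reads on its pseudogenes. They also rest on a joined exon length of 6881 bases, against 2126 in the KRT8 transcript used. The joined length was also the greater for KRT18 (3218 against 1562), KRT7 (4093 against 1754) and KRT19 (2336 against 1390).

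**Figure D2:**
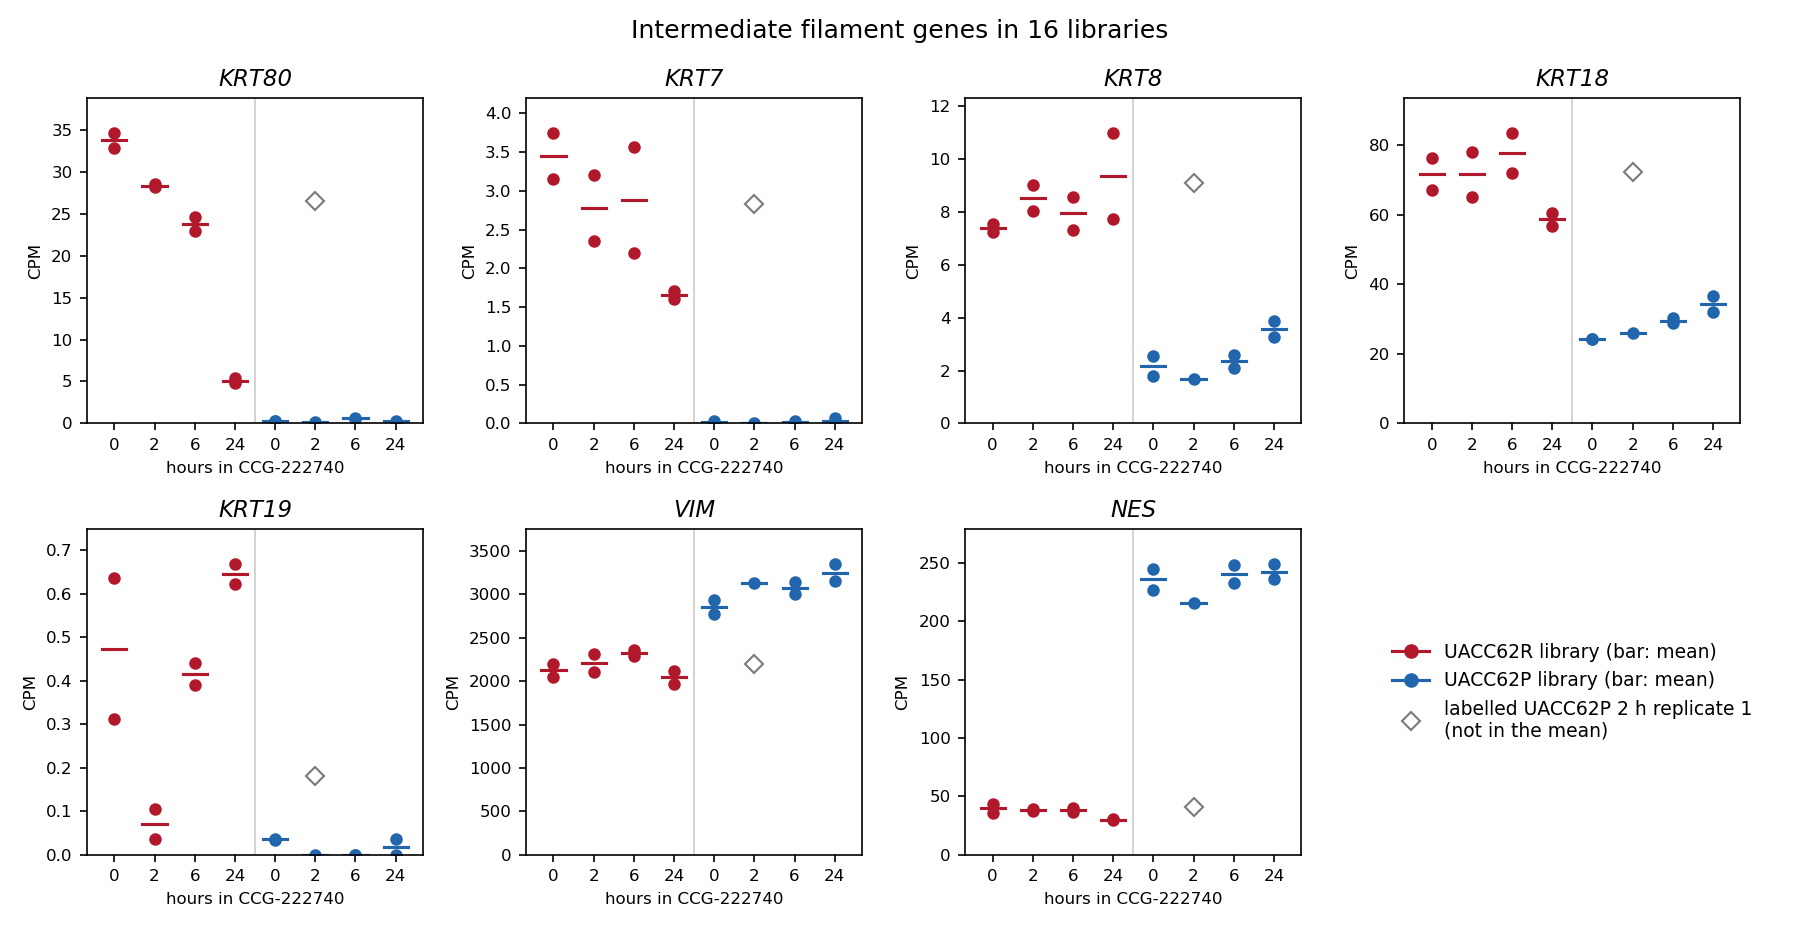
CPM (vertical axis, from 0, 1 panel per gene) against hours in 10 uM CCG-222740, UACC62R on the left and UACC62P on the right of each panel; a dot is a library, a bar the group mean, and the open diamond the library labelled UACC62P 2 h replicate 1. KRT80 in UACC62R falls away at 24 h to 5.4 and 4.79 CPM, the diamond lies among the UACC62R dots in all 7 panels, and KRT19 never reaches 0.7 CPM.

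Of the 7 genes, KRT80 had the largest called change with time in CCG-222740, a fall in UACC62R. It had 32.9 and 34.7 CPM at 0 h, 28.2 and 28.6 CPM at 2 h, 24.7 and 23.0 CPM at 6 h, and 5.4 and 4.79 CPM at 24 h. Each pair of libraries lay below the pair before it, with no overlap. At 24 h against 0 h the log2 fold change was −2.73 ± 0.12 (adjusted p = 6.46e-08, edgeR), and in this comparison, in which KRT80 and NES were called, 14.7% of all genes were called and 8.23% were called lower. With the replicate number as a block, KRT7 and KRT18 were called too, among 24.2% of all genes. With all 16 libraries the same fold change had an adjusted p of 0.314 and 0 of the 7 genes were called, among 1.78% of all genes. The common dispersion of the fit was 0.0622 with the library that stood apart and 0.00985 without it. At 6 h, where 0.666% of genes were called, 0 of the 7 genes were, and KRT80 stood at −0.50 ± 0.11 (adjusted p = 0.0629, edgeR). With the block, that value had an adjusted p of 0.009, and 2.79% of genes were called. At 2 h, where 0.074% of genes were called, 0 of the 7 passed. KRT80 stood at −0.25 ± 0.11 (adjusted p = 1).

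In UACC62P, KRT80 had 0.275 and 0.292 CPM at 0 h, 0.159 CPM in the 1 library at 2 h, 0.618 and 0.562 CPM at 6 h, and 0.307 and 0.179 CPM at 24 h. These were 16, 4, 35 and 14 reads per group. The 6 h pair lay above the others, at 1.05 ± 0.30 on the log2 scale, but did not pass (adjusted p = 0.188, edgeR). At 2 h, where 0.0444% of genes were called, and at 6 h, where 1.52% were, 0 of the 7 genes passed in UACC62P. The fold change at 24 h differed between the lines by −2.51 ± 0.42 (adjusted p = 0.0188, edgeR), with 0.562% of genes called (0.321% lower). This call was lost, with adjusted p of 0.0584 to 0.399, on leaving out UACC62P 0 h replicate 1 or 2, UACC62P 24 h replicate 1 or UACC62R 0 h replicate 2, and with 16 libraries, where 0 genes were called. The difference at 6 h was −1.55 ± 0.32 (adjusted p = 0.304, edgeR; 0.00493% of genes called), and at 2 h 0% of genes were called.

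KRT18 had opposite signs in the lines at 24 h. In UACC62R it had 76.3 and 67.2 CPM at 0 h, 78.1 and 65.1 CPM at 2 h, 83.5 and 71.9 CPM at 6 h, and 60.4 and 56.8 CPM at 24 h. The 24 h pair lay below all the others, at −0.29 ± 0.10 (adjusted p = 0.0782, edgeR; 0.0193 with the replicate block). In UACC62P it had 24.3 and 24.2 CPM at 0 h, 26.1 CPM at 2 h, 28.9 and 30.2 CPM at 6 h, and 32.1 and 36.6 CPM at 24 h. There it rose at 24 h by 0.50 ± 0.11 on the log2 scale (adjusted p = 0.0195, edgeR), the 1 called gene of the 7 in a comparison with 3.85% of all genes called. With the block, KRT8 and VIM were called too, among 12.1% of all genes. The call was lost on leaving out any 1 of the 4 libraries (adjusted p = 0.061 to 0.153) and with 16 libraries (0.891, with 0.15% of genes called). The difference between the lines was −0.79 ± 0.15 (adjusted p = 0.0299, edgeR). It was lost on leaving out any 1 of the 8 libraries at 0 and 24 h, with adjusted p of 0.0741 to 0.144.

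KRT8 had 7.56 and 7.24 CPM at 0 h, 9.02 and 8.05 CPM at 2 h, 8.56 and 7.34 CPM at 6 h, and 11 and 7.72 CPM at 24 h in UACC62R, where it did not pass at any time. In UACC62P it had 1.79 and 2.56 CPM at 0 h, 1.67 CPM at 2 h, 2.6 and 2.1 CPM at 6 h, and 3.89 and 3.28 CPM at 24 h. The 24 h pair lay above the 0 h pair by 0.73 ± 0.23 on the log2 scale (adjusted p = 0.104, edgeR; 0.0343 with the replicate block). With pseudogene reads added the value was 0.10 ± 0.09 (adjusted p = 0.608).

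KRT7 in UACC62R had 1.6 and 1.71 CPM at 24 h, against 3.75 and 3.15 CPM at 0 h. The pairs did not overlap, and the log2 fold change of −1.05 ± 0.35 missed the threshold (adjusted p = 0.0638, edgeR; 0.029 with the replicate block). At 2 and 6 h its libraries spread from 2.2 to 3.57 CPM and overlapped those at 0 h. KRT19 in UACC62R had 0.105 and 0.0368 CPM at 2 h, which were 4 reads in all, against 29 reads at 0 h. It stood at −2.65 ± 0.76 (adjusted p = 0.804, edgeR), and at 24 h its libraries held 0.622 and 0.668 CPM. In UACC62P both genes had 0 to 2 reads in each group, so changes there were not detectable at this depth.

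NES fell in UACC62R at 24 h, to 30.4 and 29.7 CPM, against 43.4 and 35.9 CPM at 0 h. The log2 fold change was −0.39 ± 0.09 (adjusted p = 0.0108, edgeR). Without UACC62R 0 h replicate 1 it was −0.26 (adjusted p = 0.101), and with 16 libraries the adjusted p was 0.834. At 2 and 6 h its UACC62R libraries, at 36.4 to 40.1 CPM, lay within the 0 h pair. In UACC62P, NES had 249 and 236 CPM at 24 h, against 245 and 227 CPM at 0 h. The difference of response of −0.43 ± 0.13 did not pass (adjusted p = 0.171, edgeR; 0.0113 with the block, in which 4.05% of genes were called for this difference).

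VIM kept within narrow limits. It had 2200 and 2050 CPM at 0 h, 2310 and 2100 CPM at 2 h, 2360 and 2290 CPM at 6 h, and 2120 and 1970 CPM at 24 h in UACC62R. In UACC62P it had 2780 and 2940 CPM at 0 h, 3130 CPM at 2 h, 3010 and 3140 CPM at 6 h, and 3350 and 3150 CPM at 24 h. The last pair lay above the 0 h pair by 0.18 ± 0.07 on the log2 scale (adjusted p = 0.156, edgeR; 0.0234 with the block). The difference of response was −0.23 ± 0.09 (adjusted p = 0.385). VIM-AS1, which shares 641 exon bases with VIM on the opposite strand, had at most 4.73 CPM in UACC62R and 3.04 CPM in the 7 UACC62P libraries used, and was not called in any of the 10 comparisons in 15 libraries. With the replicate block it was called higher in UACC62R at 0 h (0.66 on the log2 scale).

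**Figure D3:**
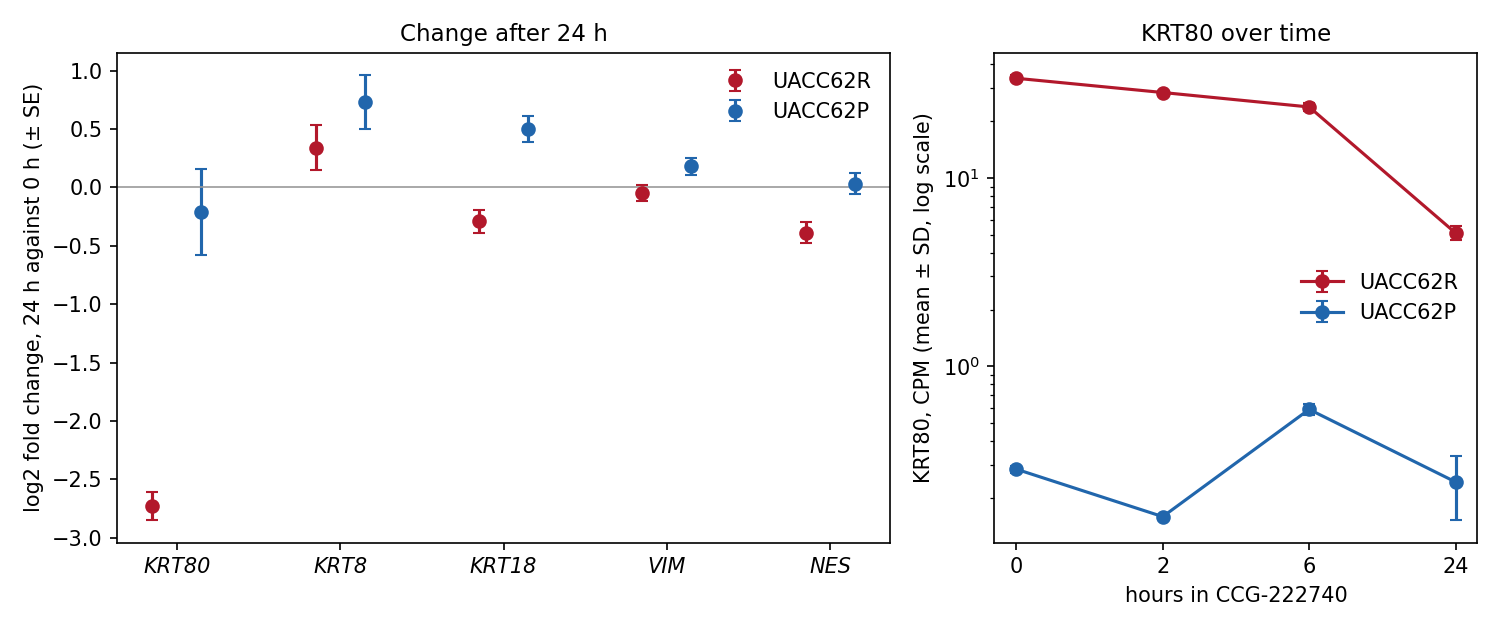
Left, log2 fold change at 24 h against 0 h (± SE) of the 5 genes with over 10 reads in every group of 2 libraries; right, mean KRT80 CPM (± SD, log scale, n = 2 except n = 1 for UACC62P at 2 h) against hours in CCG-222740. In UACC62R, KRT80 lies at −2.73 and NES at −0.39, and in UACC62P KRT18 lies at 0.50.

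The other intermediate filament genes were 61 by symbol, of which 25 passed the filter on low counts, and 36 keratin and other genes had too few reads to test. Among the 25 at 0 h, 17 were higher in UACC62R and 2 lower (53.9% of all genes called). Several of them passed the filter through UACC62R alone, so the count is not support of its own. With 16 libraries, 14 were higher and 1 lower of 23 tested (40.5% of all genes called). With the replicate block, 18 were higher and 3 lower of 25 (58.7% of all genes called). KRT81, a hair keratin, had 46.9 and 41.1 CPM in UACC62R at 0 h, against 0.172 and 0.0365 CPM in UACC62P (log2 fold change 8.63 ± 0.26, adjusted p = 1.08e-11, edgeR). KRT15, a keratin of basal epidermal cells, had 38.7 and 37.8 CPM, against 2.20 and 2.23 CPM (4.10 ± 0.15). KRT34, KRT33B and KRT16 had 1173, 304 and 133 reads in UACC62R and 0 in UACC62P, so they were at least 356, 92.3 and 40.4-fold higher, counted against 3 reads over the group. KRT81, KRT33B and KRT34 belong to hair keratin families of near-identical members, among which short reads may be split.

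Outside the keratins, GFAP, a type III protein of astrocytes, had 2.71 and 1.81 CPM in UACC62R, against 0.275 and 0.512 CPM in UACC62P (2.51 ± 0.40). BFSP1, a lens filament protein, was higher in UACC62R by 0.60 ± 0.09, and SYNM, which joins type III filaments, was lower by −0.87 ± 0.10, as was LMNB2, a B-type lamin, by −0.52 ± 0.09 (adjusted p at most 0.000292, edgeR). Of 20 listed linker and desmosome genes 15 were tested, and 9 were higher and 1 lower in UACC62R, where 53.9% of all genes were called. Some of them, such as PKP2 and DSP, passed the filter on low counts through UACC62R alone, so the count is not support of its own. The counts were 10 higher and 3 lower with the replicate block (58.7% of all genes called), and 7 and 1 of 14 tested with 16 libraries (40.5%). PKP2, a desmosomal plaque protein, had 8.06 and 7.68 CPM in UACC62R, against 0.172 and 0.0731 CPM in UACC62P (5.94 ± 0.31), and none of the 7 UACC62P libraries used held over 6 reads of it. FAM83H, known to bind keratins, was higher by 1.82 ± 0.13, PLEC, the linker that ties filaments to the cell cortex, by 1.58 ± 0.19, and PKP3, a desmosomal plaque protein, by 1.41 ± 0.29.

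At 24 h in UACC62R, 2 of the other 25 filament genes rose and 5 fell (14.7% of all genes called). KRT34 fell to 5.76 and 6.59 CPM at 24 h, against 14.0 and 23.6 CPM at 0 h (log2 fold change −1.60 ± 0.26). KRT81 fell to 24.3 and 21.1 CPM, against 46.9 and 41.1 CPM (−0.95 ± 0.13). KRT10, a keratin of the differentiated epidermis, rose to 44.9 and 36.7 CPM, against 27.9 and 30.4 CPM (0.49 ± 0.12). LMNB1 and LMNB2 fell by 0.88 and 0.81 on the log2 scale, and BFSP1 rose by 0.52 (adjusted p at most 0.0143 for all 6 genes, edgeR). With 16 libraries, 0 rose and 1 fell of 23 tested, and with the replicate block 2 rose and 7 fell of 25.

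In UACC62P at 24 h, where 3.85% of all genes were called, LMNB2 was the 1 called gene of the 25 (−0.42 ± 0.09, adjusted p = 0.0219, edgeR). With 16 libraries 0 were called, and with the replicate block 2 were lower. Of the 15 linkers tested in UACC62R, 2 rose and 2 fell at 24 h (14.7% of all genes called). JUP (plakoglobin) rose to 81.6 and 46.5 CPM at 24 h, against 28.2 and 13.3 CPM at 0 h (1.63 ± 0.36, adjusted p = 0.00782, edgeR), and PERP rose by 0.23 ± 0.07. PKP4 and TCHP fell by 0.36 and 0.51 on the log2 scale (adjusted p at most 0.0496 for the 3 genes, edgeR). In UACC62P, DSG2, a desmosomal cadherin, rose to 85.7 and 73.4 CPM at 24 h, against 59.1 and 48.2 CPM at 0 h (0.56 ± 0.11, adjusted p = 0.0102, edgeR), the 1 called linker of 15 there. With 16 libraries 0 linkers were called at 24 h in either line. With the replicate block, 4 rose and 2 fell in UACC62R and 2 rose in UACC62P. BFSP1 was the 1 gene of the other 25 whose 24 h response differed between the lines (0.65 ± 0.12, adjusted p = 0.0299, edgeR; 0.562% of all genes called). With the block 1 was higher and 1 lower, and with 16 libraries 0 were called.

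**Figure D4:**
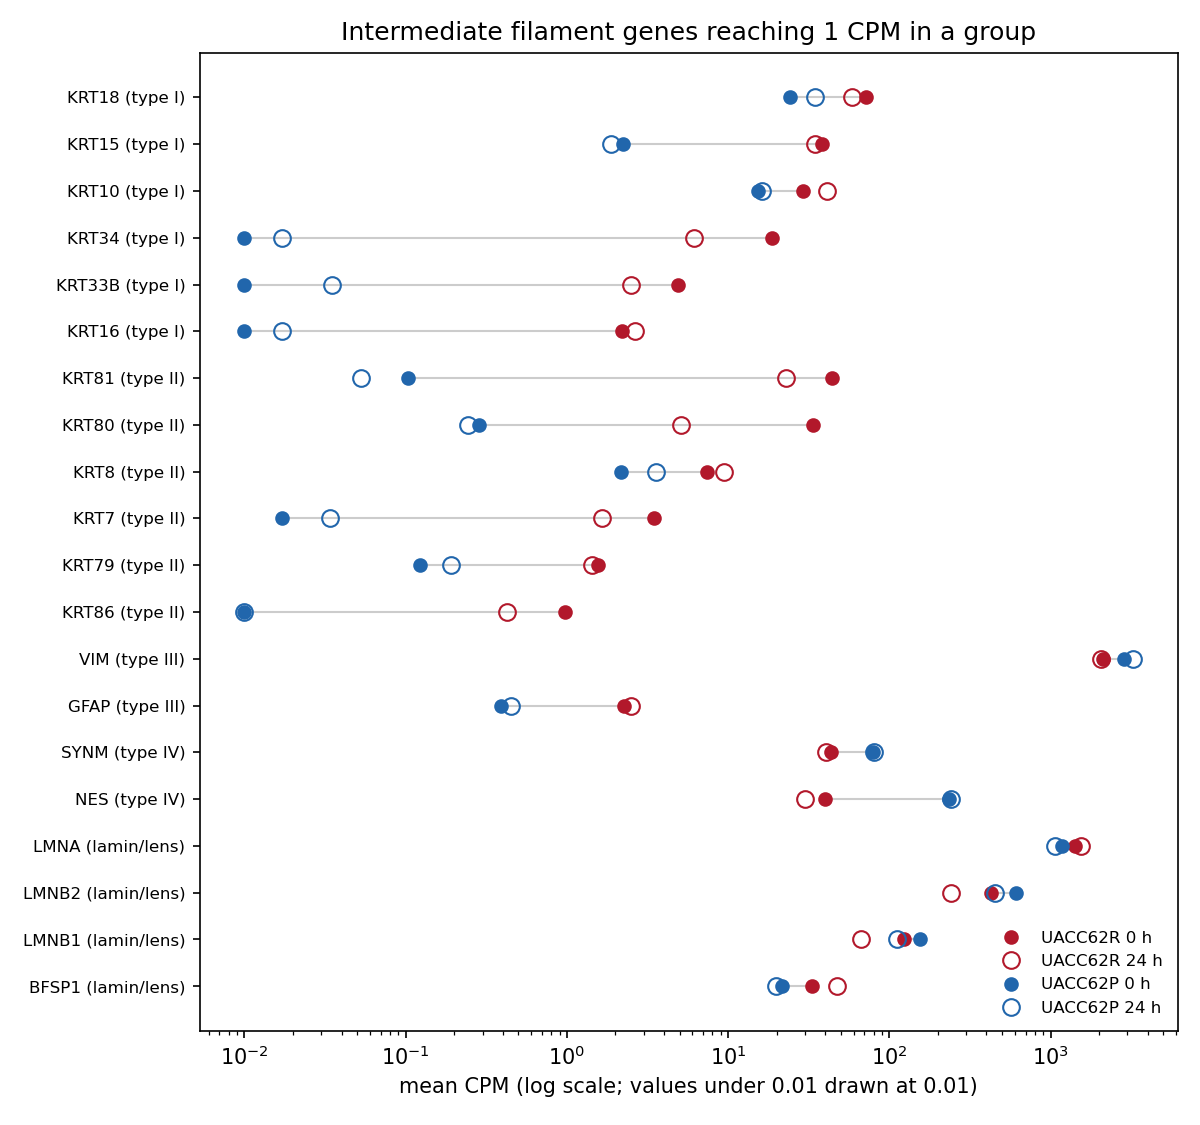
Mean CPM (horizontal axis, log scale, values under 0.01 drawn at 0.01) of the intermediate filament genes that reached 1 CPM in at least 1 of the 8 groups; filled dots are 0 h and open circles 24 h, red for UACC62R and blue for UACC62P, joined by a line between the lines at 0 h. Every keratin shown lies higher in UACC62R at 0 h, and KRT80, KRT34 and KRT81 have their 24 h circle below the 0 h dot in UACC62R.

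Over the 15 libraries, with log2 CPM centred within each line, the genes whose pattern was most like KRT80 were PAG1 (Pearson r 0.951), F2RL1 (0.948) and CRIM1 (0.948), out of 10433 protein-coding genes. For KRT18 they were FLNA (0.904), KLF7 (0.882) and WNK4 (0.857), and for NES they were ACTN4 (0.925), VCL (0.917) and STMP1 (0.91). For KRT7 the nearest was TCF7L1 (0.871), for KRT8 USP4 (0.872) and for KRT19 NPEPPS (0.881). KRT7 and KRT19 had at most 2 reads in any UACC62P library used, and KRT19 at most 23 in UACC62R, so counting error weighs on their values. The genes were picked for the highest r, and the libraries share lines and times, so these values describe the pattern only.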

How the data were processed

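Single reads of 50 bases came from stranded mRNA libraries, per the labels. The submitters' processing notes name HISAT2 2.1.0, HTSeq 0.6.1 and Trimmomatic 0.33, and the genome build hg19. The authors deposited raw read counts per Ensembl gene, 1 table per library, with no normalization. Reads placed in more than 1 gene or place were not counted (18.62 to 22.01% of reads aligned to more than 1 place).

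Counts were scaled by TMM, filtered by filterByExpr and tested with edgeR 4.0.16 (quasi-likelihood, R 4.3.3), 1 coefficient per group, 15 libraries, 7 residual degrees of freedom. Benjamini-Hochberg adjustment ran over all 20280 genes. An SE is the log2 fold change over the square root of F. Alternatives were 16 libraries, a replicate block, DESeq2 1.42.0, other scalings, no filter and each library left out. Adding pseudogene reads was chosen after seeing the data. The fit was tested on simulated counts with the same dispersion for every gene and no deviation shared by replicate number. That test therefore does not cover the pairing that follows. Same-numbered libraries deviated together in 21 of 21 pairs of groups (r 0.17 to 0.72 over 8273 genes). The fit with the replicate block takes the numbers to pair libraries. The main fit has no block, so its calls and misses leave this pairing out. No label states this pairing.

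The members and lists were chosen with earlier results of these data known. Up to 4 called genes per list were named by size (mean log2 CPM at least 0). Fold changes are reported for the 24 of 70 pairs of a gene and a comparison with an unadjusted p under 0.05, a limit set after seeing the data. Lengths, transcripts and coordinates are from GENCODE v29 (GRCh38), not the files' build. Values per kb use the joined length of all annotated exons of a gene. Intervals cover counting error only. The genes most like VIM are not reported here.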

Additional observations from a re-analysis of the deposited data

Results flagged for a closer look

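The response at 24 h differed between the lines by the test of the difference for KRT80 (−2.51 on the log2 scale) and KRT18 (−0.79). Both calls were lost on leaving out single libraries, and the KRT80 value rests on 14 reads at 24 h and 16 at 0 h in UACC62P.

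The library labelled UACC62P 2 h replicate 1, left out of the 15-library comparisons, held more of all 5 keratins than any other UACC62P library. It had 26.5 CPM of KRT80, 2.83 CPM of KRT7, 9.11 CPM of KRT8, 72.3 CPM of KRT18 and 0.181 CPM of KRT19. The other UACC62P libraries reached at most 0.618, 0.0683, 3.89, 36.6 and 0.0365 CPM of these genes. Its levels of VIM (2200 CPM) and NES (41.2 CPM) lay below every other UACC62P library, at 2780 and 216 CPM or more.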

How the results depend on the processing

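All 7 genes stayed called between the lines at 0 h under every alternative run. For KRT7 and KRT19, which passed the filter on low counts through UACC62R alone, this is not support of its own. With 16 libraries, 0 members were called at 24 h in UACC62R, in UACC62P and for the difference of response. With the replicate block, 3 were called in UACC62P at 24 h, 4 in UACC62R at 24 h and 1 in UACC62R at 6 h, where DESeq2 and scaling by library size alone also called 1. Leaving out single libraries gave 0 to 1 members in UACC62P at 24 h, 1 to 2 in UACC62R at 24 h and 0 to 2 for the difference at 24 h. KRT7 in UACC62R at 24 h was also called with no filter on low counts (−1.04, adjusted p = 0.0206).

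None of the 24 fold changes with an unadjusted p under 0.05 changed sign. They were picked for that p in the main fit, which favours a stable sign, so this is not support of its own. Of the other 46 pairs, 32 changed sign under at least 1 alternative, in 52 of 988 refits, and none was called in any. With 16 libraries, UACC62P at 2 h stood at 5.54 for KRT80, against −0.82 without the library that stood apart (adjusted p = 0.158 and 1, edgeR). Scaling by library size alone moved 4 of 56 group levels by more than the spread between replicates or, for single libraries, the counting error. With 2 libraries a group, or 1, and few keratin reads in UACC62P, changes of KRT7 and KRT19 there could not be resolved.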
